A study of Drosophila melanogaster with 6 samples.

Results

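The baseline transcriptome of clock neurons was read in 3 control libraries, which are 3 of the 6 libraries of the series. They were chosen by their titles alone, as wildtype flies at zeitgeber time (ZT) 14, and no measured value entered the choice. Every control library came from adult Drosophila melanogaster brains of the genotype ;ClkGAL4, UAS-GFP-NLS/+;. In these flies the Clk-GAL4 driver, active in clock neurons, expresses a nuclear green fluorescent protein (GFP), so the cells read are those that this driver marks. Flies spent 5 days in cycles of 12 h of light and 12 h of darkness and were taken at ZT14, early in the dark phase, since ZT counts hours from lights-on. For each library about 2000 cells were sorted that carried GFP and did not take up DAPI, a dye that stains dead cells. Polyadenylated RNA from part of the lysate was copied and amplified as cDNA by a protocol for low input, and the cDNA was tagmented. The labels do not say whether the repeats came from separate groups of flies, so the spread between libraries given here may be partly technical. The other 3 libraries of the series, from flies with a hairpin against Prp3, were not analysed here.

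Clock neurons are the small sets of brain cells that keep daily time in the fly. In each of them the transcription factors CLOCK and CYCLE switch on period (per) and timeless (tim), whose proteins return to the nucleus and block CLOCK and CYCLE, while vrille (vri) and Pdp1 form a second loop that sets the transcription of Clk. The neurons are also peptide-releasing cells: the neuropeptide PDF carries time information between them, and several other peptides mark single subsets of the network.

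The libraries held 32551739, 28141101 and 24477244 counts assigned to genes (libraries 1, 2 and 3). Levels are given as counts per 1000000 gene counts of the library (CPM), and the deposited counts are those for both strands together. A gene with no count in a library had a level of at most 0.0922, 0.107 and 0.123 CPM (3 counts) in libraries 1, 2 and 3, a limit that covers counting error only. Of 17868 listed genes, 7061 (39.5%) had at least 1 CPM in each of the 3 libraries and are called detected, and 5878 had no count in any library. A further 1976 genes reached 1 CPM in some libraries but not in all. Between libraries, the median gene among the 6172 with a mean of at least 10 CPM differed by 0.33 (libraries 1 and 2), 0.37 (1 and 3) and 0.43 (2 and 3) on the log2(CPM + 1) scale.

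The cells carried the markers of neurons and of clock neurons in all libraries. All 5 clock neuron markers (tim, Pdp1, Pdf, cry and vri) were detected, and their summed level was 18607, 5242 and 18480 CPM in libraries 1, 2 and 3. The lower sum of library 2 came from Pdf, since the other 4 markers were highest in library 1 and lowest in library 3. The 6 general neuron markers (elav, nSyb, Syt1, brp, para and futsch) were all detected as well, with sums of 4212, 4905 and 4044 CPM. elav, an RNA-binding protein found in all fly neurons, had 191, 165 and 178 CPM, and its range was narrow.

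Markers of glia, photoreceptors, fat body, hemocytes and muscle took far fewer counts, and they were not equal among the libraries. The 8 glial markers summed to 315, 172 and 539 CPM, and 3 of them were detected. Gs2, a glutamine synthetase, had 218, 61.5 and 473 CPM and made up most of the sum in libraries 1 and 3. Eaat1, a glutamate transporter, had 77.7, 98.8 and 25.7 CPM. It was the largest part in library 2 and was lowest in library 3. In contrast repo, the transcription factor that defines most glia, had 0, 0.142 and 1.47 CPM, and gcm had at most 3 counts in any library. The 12 photoreceptor markers summed to 69.4, 6.79 and 63.8 CPM with none detected. The rhodopsin gene ninaE had 53.0, 0 and 41.1 CPM, and Rh2 had no count in any library. The 7 muscle markers summed to at most 2.74 CPM, with Act57B and Act88F at 0 in all libraries. A wider photoreceptor list of 20 genes summed to 535, 509 and 470 CPM, mainly through the phototransduction gene norpA with 287, 276 and 201 CPM. A wider muscle list of 14 genes summed to 324, 305 and 277 CPM, nearly all from the tropomyosin gene Tm1 with 321, 303 and 266 CPM. A wider glial list of 15 genes summed to 482, 321 and 844 CPM. Of its 6 genes with a mean of at least 10 CPM, 4 were highest in library 3, against 31.1% of all genes. Another of them, nrv2, was nearly level with 136, 122 and 123 CPM. Among the 7 fat body markers, apolpp alone was detected, with 27.5, 13.4 and 13.6 CPM, and Fbp1, Lsp2 and to had no count. All 10 genes listed for Kenyon cells, neurons of the mushroom body, were detected, with sums of 1230, 1513 and 1316 CPM. Several of them, such as Mef2, toy, dnc and Pka-C1, are also on other lists used here. The part taken by such neurons was not tested.

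**Figure D1:**
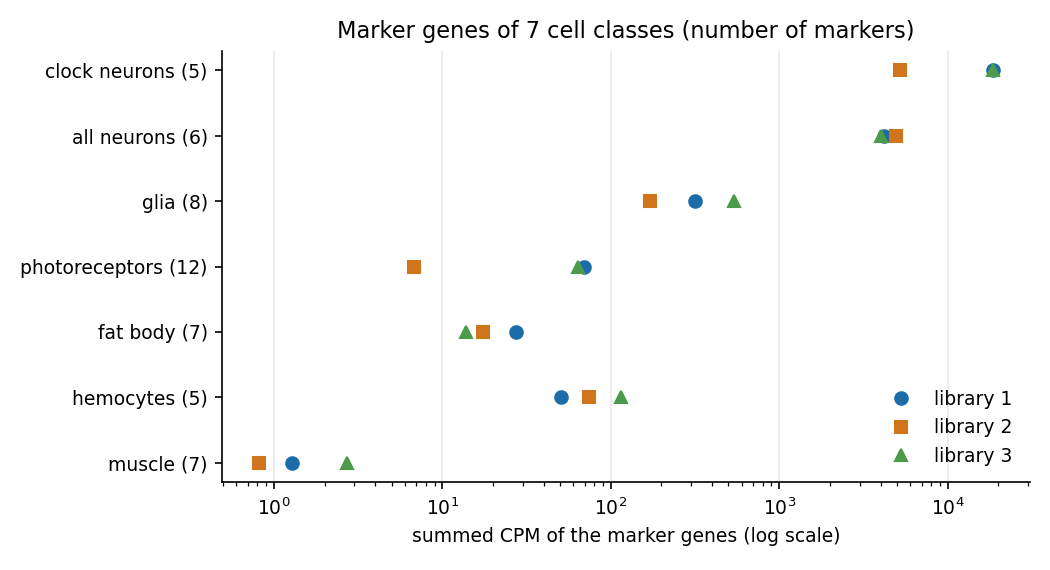
Summed CPM of marker genes (log axis) for 7 cell classes, 1 point per control library, with the number of markers of each class in brackets. Clock neuron and general neuron markers sum to 4044 CPM or more in every library, while the glial sums lie between 172 and 539 CPM and the muscle sums at or under 2.74 CPM.

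Hemocyte markers differed most in kind. The 5 markers summed to 50.8, 74.1 and 115 CPM, but in libraries 1 and 2 nearly all of it was Pxn (50.1 and 73.2 CPM), a peroxidase of the extracellular matrix. In library 3 Pxn had 10.9 CPM and the rest came from genes that were almost silent in the others. Hml (hemolectin), a defining hemocyte gene, had 0.184, 0.0355 and 43.3 CPM, and NimC1, a phagocytosis receptor of these blood cells, had 0, 0 and 27.4 CPM. A wider hemocyte list of 9 genes summed to 122, 119 and 232 CPM. On it Ppn was also high in library 3 alone (0.399, 0.462 and 43.5 CPM), while crq was not (71.1, 42.9 and 69.7 CPM). Library 3 also had the highest glial sum, through Gs2 and alrm (14.9, 3.38 and 31.5 CPM), although Eaat1 and wrapper (3.38, 3.52 and 0.0409 CPM) were lowest there. The part that such cells took in the results for library 3 was not tested.

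Core clock genes were all detected, 8 of 8. Pdp1, the activator of the second loop, had 1627, 1482 and 1227 CPM, and tim had 814, 735 and 525 CPM. vri, the repressor of that loop, had 315, 258 and 237 CPM. For these 3 genes the order of libraries was the same, with library 1 highest and library 3 lowest, and the largest level was at most 1.55 times the smallest. cry, the blue-light photoreceptor that resets the clock, had 218, 190 and 99.3 CPM, and cwo, a repressor of CLOCK targets, had 159, 112 and 84.8 CPM. Both were again lowest in library 3, cry by a factor of 2.20 against library 1.

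The activator pair and per gave fewer counts. cyc had 40.1, 57.8 and 35.5 CPM, Clk 21.0, 28.0 and 8.58 CPM, and per 9.80, 33.5 and 15.0 CPM. All 3 genes were highest in library 2. The spread of per and Clk was wide, with a coefficient of variation (CV, the SD over the mean of the 3 libraries) of 64.0% for per and 51.2% for Clk, while that of Pdp1 was 14.03%. Library 3 was the lowest for 7 of the 8 core genes, all but per, and for 40.1% of all 6172 genes with a mean of at least 10 CPM.

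Levels of different genes can be compared only per length, for which counts were divided by the length of each gene's exons and scaled to a common sum (TPM, the per-length counterpart of CPM). On this scale Pdp1 stood at 221 ± 42.5 TPM (SD, n = 3), tim at 183 ± 48.5, cry at 168 ± 68.1 and vri at 106 ± 19.6. The spreads of the first 3 overlap, but within each library Pdp1 was above tim and tim was above cry. For tim and cry the gap was small in library 1 (215.8 and 214.7 TPM) and library 2 (206 and 198 TPM). Below vri came cyc at 51.2 ± 17.0 TPM and cwo at 43.4 ± 14.9 TPM, which overlap each other. The lowest were per at 8.11 ± 5.70 TPM and Clk at 8.06 ± 4.53 TPM, and their order changed between libraries. cry shares 17.8% of its exonic bases with overlapping genes (vib and a long noncoding RNA) and tim 9.90%, so part of their reads may have been left unassigned.

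**Figure D2:**
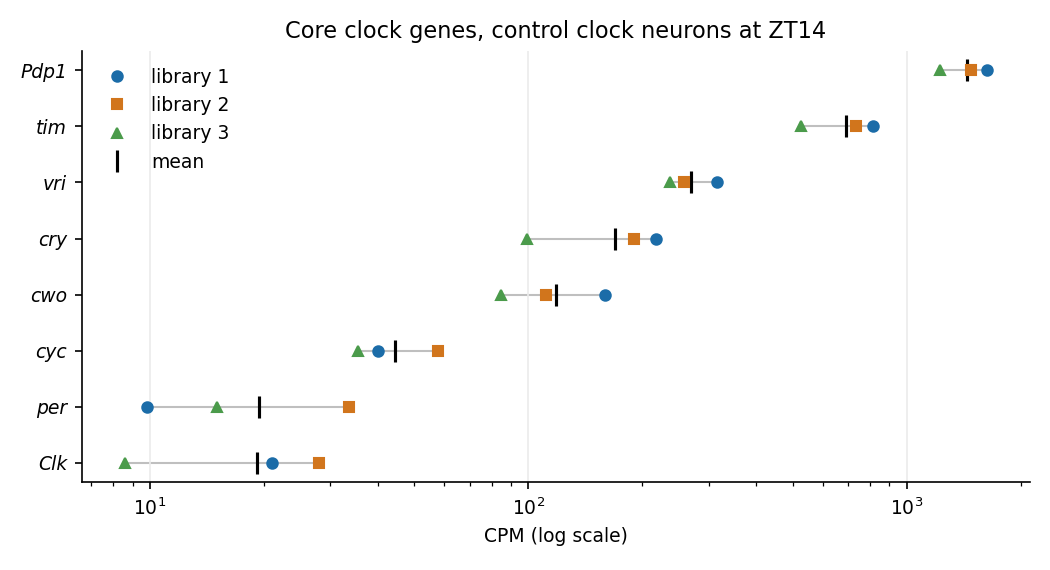
CPM (log axis) of the 8 core clock genes in each of the 3 control libraries, with the mean as a vertical bar. Pdp1 and tim have 525 to 1627 CPM, Clk and per 8.58 to 33.5 CPM, and library 3 is the lowest point for every gene but per.

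Enzymes that act on the clock proteins were more even. All 11 listed kinases, phosphatase subunits and degradation factors were detected, none of them stood apart in any library, and their median CV was 10.95%. A gene with a mean of at least 10 CPM is said to stand apart in a library where its CPM there was at least 2 times, or at most 1 in 2 of, that of each of the other libraries, and CVs of lists are medians over the genes above the same minimum. mts, the catalytic subunit of protein phosphatase 2A, had 1040, 986 and 892 CPM, and wdb, one of its regulatory subunits, had 474, 476 and 455 CPM. The casein kinase 2 subunits CkIIbeta and CkIIalpha had 602, 510 and 597 CPM and 532, 439 and 655 CPM. sgg, a kinase that acts on TIM, had 272, 340 and 273 CPM, and dco (doubletime), the kinase of PER, had 34.2, 27.4 and 31.0 CPM. The widest of the list were tws, with 266, 259 and 148 CPM (CV 29.4%), and jet, with 50.1, 39.2 and 29.7 CPM (CV 25.6%). Among all 6172 genes with a mean of at least 10 CPM, 850 (13.8%) stood apart in at least 1 library. Of the 11 listed genes, 9 had a mean of at least 100 CPM. At that level 3.56% of all genes stood apart and their median CV was 16.3%, so few apart would be found in most sets. Of the 5 genes listed for the translation of clock transcripts, all were detected. pAbp, the poly(A)-binding protein, was highest in library 2 with 2320 CPM, against 1178 CPM in library 1 and 898 CPM in library 3, while tyf, its partner in per translation, had 118, 100.4 and 168 CPM.

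Transcription factors known from subsets of clock neurons were mostly present, 28 of 31 listed, with a median CV of 31.2%. pros (prospero), a homeodomain factor, was the most counted with 4731, 3998 and 2412 CPM. Per length it had 279 ± 100.2 TPM, against 321 ± 30.4 TPM for exd (SD, n = 3), and these spreads overlap. The zinc-finger gene mamo had 693, 1297 and 1260 CPM, and the partner homeodomain genes hth and exd had 501, 533 and 701 CPM and 628, 519 and 575 CPM. The nuclear receptor gene Eip75B had 460, 416 and 371 CPM. Fer2, a basic helix-loop-helix factor of PDF neurons, had 177, 66.1 and 242 CPM. It was lowest in library 2, as were Pdf and 31.2% of all genes with a mean of at least 10 CPM. toy, the fly Pax6 gene, had 238, 296 and 297 CPM, so it was nearly level.

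A few genes took a large part of the reads. The top 10 genes by mean CPM held 9.54 ± 2.10% of gene counts (SD, n = 3), the top 100 held 29.3 ± 1.76%, and 363, 412 and 345 genes together made up 50% of the counts of libraries 1, 2 and 3. The most counted gene was CG12239, a protein-coding gene with a number for a name, at 22580, 11921 and 22278 CPM. Next came lncRNA:noe, a noncoding RNA of the nervous system, with 18327, 12991 and 13925 CPM. Both were lowest in library 2, and the levels of noe were closer together.

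A noncoding gene beside CG12239 was nearly as abundant. lncRNA:CR44832 had 11019, 7537 and 21213 CPM and lies on chromosome X from 5790952 to 5791536 on the minus strand (BDGP6, the dm6 assembly). CG12239 lies from 5792140 to 5794543 on the plus strand, so the genes point away from each other with 603 bases between them, and they share no exonic base. The pair took 3.36, 1.95 and 4.35% of all gene counts. The ratio of CR44832 to CG12239 was 0.488, 0.632 and 0.952 in libraries 1, 2 and 3, so the neighbours did not keep a fixed proportion.

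Genes of energy supply and signalling filled much of the rest of the top 20 by CPM, and most of these were steady. ATPsynbeta, the catalytic subunit of the mitochondrial ATP synthase, had 4880, 4592 and 5030 CPM, and sesB, which exchanges ADP for ATP across the inner mitochondrial membrane, had 4544, 4210 and 4524 CPM. Argk, the arginine kinase that buffers ATP, had 4114, 4449 and 3762 CPM. Adaptor genes of the 14-3-3 family were there too: 14-3-3zeta had 5013, 4789 and 4329 CPM and 14-3-3epsilon 4678, 3504 and 3971 CPM. nrv3, the sodium pump beta subunit of neurons, was highest in library 3 with 5814 CPM, against 3760 CPM in library 1 and 4181 CPM in library 2. miple1, a secreted growth factor of the midkine family, had 3903, 3705 and 4162 CPM. The neuropeptide genes Pdf, Crz and AstC and the heat shock genes Hsp26 and Hsp83 belonged to the same 20 and were less even.

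**Figure D3:**
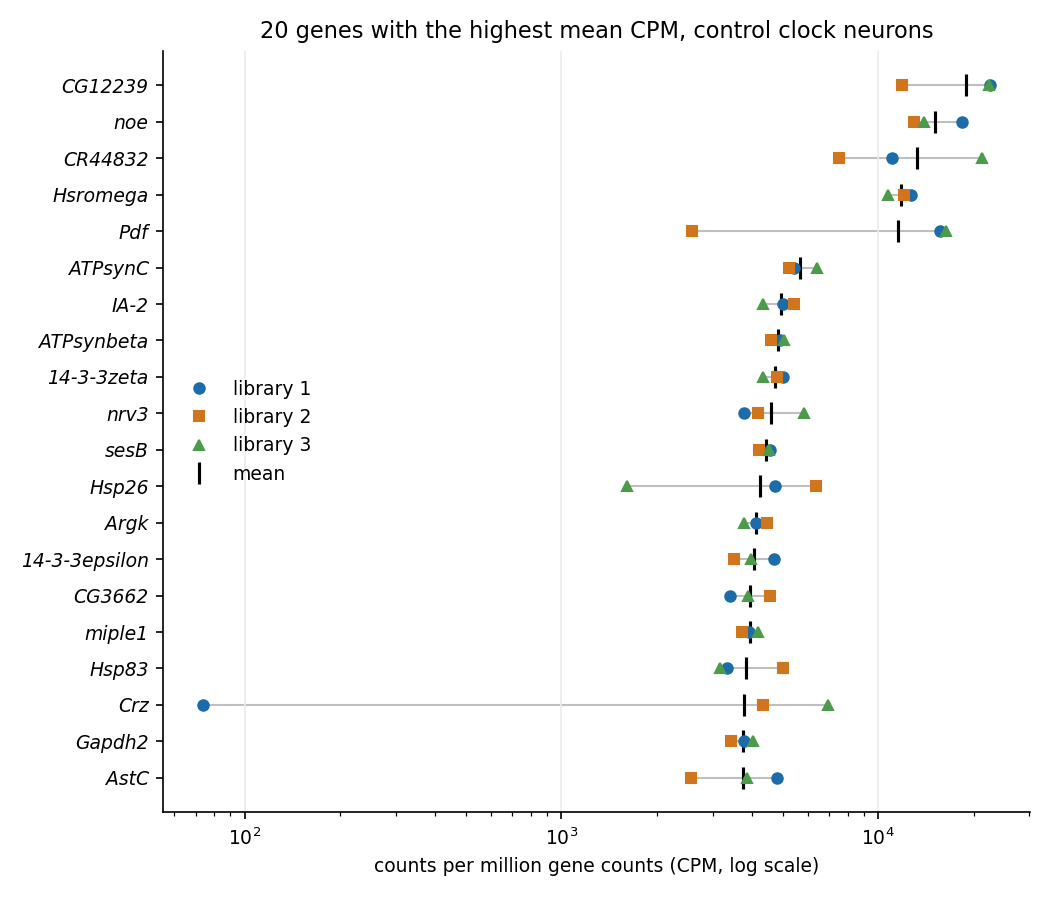
The 20 genes with the highest mean CPM (log axis), with 1 point per control library and the mean as a vertical bar. Most genes span a narrow range, while Pdf (2578 to 16392 CPM), Crz (73.7 to 6918 CPM) and Hsp26 (1614 to 6367 CPM) spread widely.

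Per length, the order changed toward short transcripts. lncRNA:CR44832 came first with 40839 ± 18888 TPM (SD, n = 3), then Pdf with 30518 ± 19965 TPM. Next were lncRNA:noe with 25887 ± 5162 TPM and CG12239 with 14757 ± 4170 TPM. The spreads of the first 3 overlap. Within each library CR44832 was above noe, while the place of Pdf changed. The top 20 by TPM shared 11 genes with the top 20 by CPM. It also held the peptide genes Crz, AstC, Trissin and Dh31, the small heat shock gene Hsp23, the histone H4 gene His4r and Cyt-c-p, the cytochrome c of the respiratory chain (3794 ± 122 TPM). lncRNA:Hsromega, ranked 4 by CPM with 12653, 12093 and 10760 CPM, had 1011 ± 143 TPM, since 21710 bases are annotated as its exons. His4r encodes the same protein as the repeated histone H4 genes, and reads that map to several places were not counted for any gene.

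Long noncoding RNAs made up 4.94 ± 0.652% of gene counts and protein-coding genes 94.6 ± 0.650% (SD, n = 3). Few of them carried this share: 125 of 1984 long noncoding RNA genes were detected, and the 4 most counted, noe, CR44832, Hsromega and CR31451, held 88.5, 85.6 and 91.1% of all their counts. CR31451 had 4546, 3202 and 2986 CPM. The RNAs of the X chromosome's dosage compensation complex were both present, roX1 with 1921, 2379 and 1659 CPM and roX2 with 245, 198 and 167 CPM. Their CVs of 18.3 and 19.2% lay close to that of noe, 18.9%.

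Neuropeptide genes were among the most abundant and the least steady genes of these cells. Of 45 listed, 24 were detected, 27 had a mean of at least 10 CPM, 20 a mean of at least 100 CPM, and 7 had no count in any library. Together they held 3.45, 2.35 and 4.64% of gene counts in libraries 1, 2 and 3. In bulk libraries such as these, fewer cells of a type and less RNA per cell cannot be told apart. Pdf, the main output peptide of the lateral clock neurons, had 15632, 2578 and 16392 CPM. It made up 45.3, 10.97 and 35.3% of all neuropeptide counts, and without it the others summed to 1.89, 2.09 and 3.00% of gene counts. Libraries 1 and 3 were nearly equal in Pdf and library 2 stood apart below them.

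Other peptides had their own library order. Crz (corazonin), a stress-related peptide, had 73.7, 4320 and 6918 CPM and was lowest in library 1. Hug, the hugin precursor, had 153, 2616 and 553 CPM, and sNPF, a peptide of lateral clock neurons, had 541, 2433 and 653 CPM. Both stood apart in library 2. Mip, the myoinhibitory peptide precursor, had 4323, 1425 and 812 CPM and was highest in library 1. ITP, the ion transport peptide that marks a subset of evening clock neurons, had 377, 4.41 and 4952 CPM, so that it was among the 3 most counted peptide genes of library 3 and close to silent in library 2.

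Capa, Orcokinin and Ms were far higher in library 3 than in the others. Capa, known from neurosecretory cells, had 9.22, 0.107 and 559 CPM, where the value of library 2 stands for 3 counts. Orcokinin had 14.5, 6.57 and 400 CPM, and Ms (myosuppressin) had 366, 428 and 1936 CPM. At low levels Ilp3 (0, 52.4 and 37.5 CPM), CCHa2 (0, 36.0 and 1.31 CPM) and Eh (56.1, 9.10 and 0 CPM) each had no count in 1 library. Of the 27 genes with a mean of at least 10 CPM, the highest library was library 3 for 12, library 2 for 9 and library 1 for 6, so no single library held the high values.

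A few peptide genes were steadier. Gpb5, a glycoprotein hormone subunit, had 145, 146 and 161 CPM. CNMa, a peptide of dorsal clock neurons, had 1491, 1340 and 1028 CPM, and Dh44 had 392, 397 and 268 CPM. AstA (415, 294 and 293 CPM) and CCHa1 (514, 604 and 380 CPM), which links dorsal and lateral clock neurons, were within a factor of 2 across libraries.

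Peptide genes of known clock neuron subsets were among both the steadier and the uneven ones. AstC, a peptide of dorsal and lateral clock neurons, had 4785, 2557 and 3859 CPM, and Dh31, a wake-promoting peptide of dorsal clock neurons, had 2023, 2222 and 4635 CPM and stood apart in library 3. Trissin, from dorsal lateral clock neurons, had 2310, 721 and 1591 CPM and stood apart in library 2. NPF, also known from dorsal lateral clock neurons, had 15.0, 14.6 and 40.5 CPM and stood apart in library 3. Akh, the adipokinetic hormone gene of the corpora cardiaca, had 0, 0.497 and 0 CPM, and ETH, the ecdysis-triggering hormone gene, had no count. Ilp2, of the insulin-producing cells of the brain, had 1.97, 0.995 and 1.39 CPM, while Ilp3 of the same cells was at 0, 52.4 and 37.5 CPM, as given above.

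**Figure D4:**
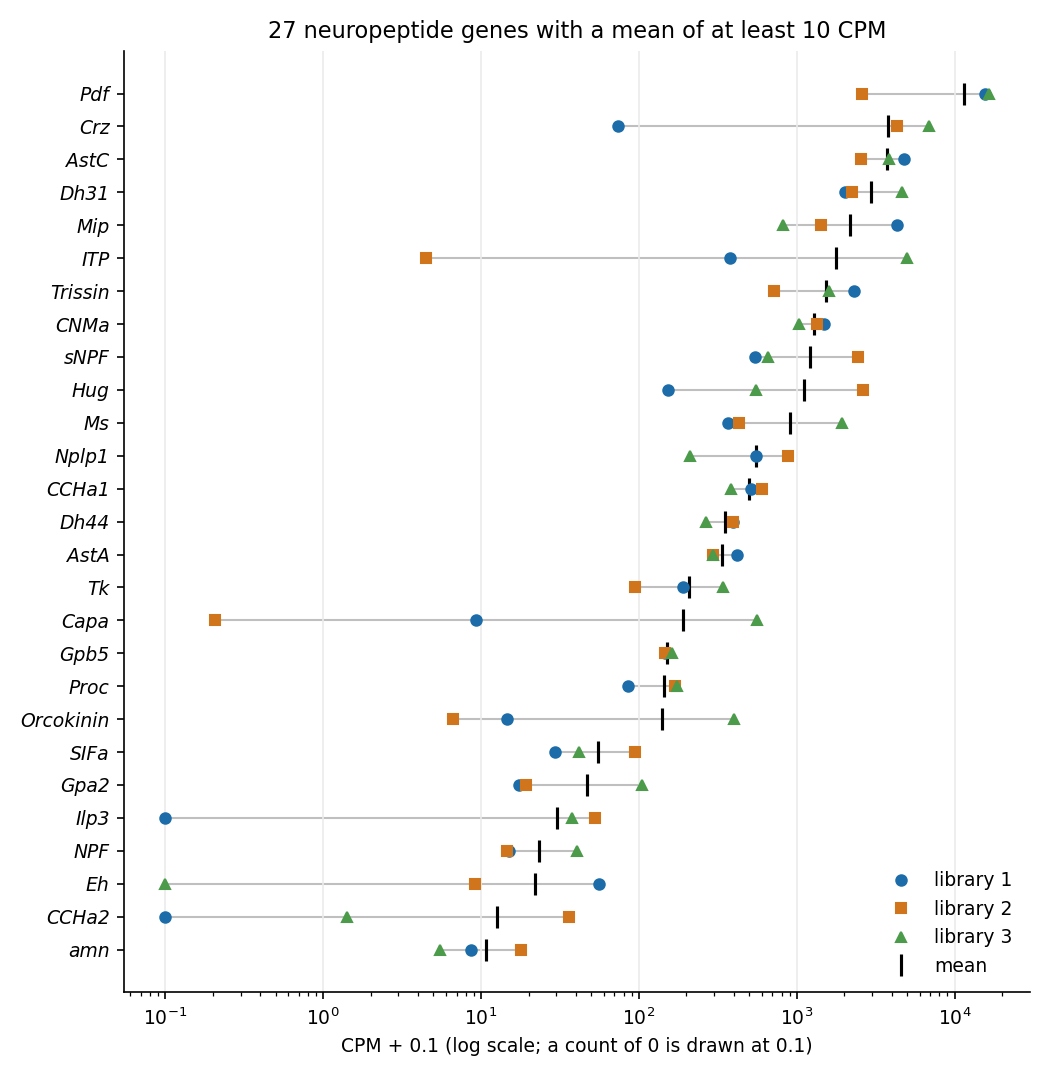
CPM + 0.1 (log axis) of the 27 neuropeptide genes with a mean of at least 10 CPM, 1 point per control library and the mean as a vertical bar. Capa, ITP, Crz, Orcokinin and Hug span the widest ranges among the genes with a mean of at least 100 CPM, and Gpb5 the narrowest.

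The median CV of the 27 neuropeptide genes was 63.6%, against 22.9% for all 6172 genes with a mean of at least 10 CPM. Of these neuropeptide genes 20 stood apart in at least 1 library, against 850 (13.8%) of all. At a mean of at least 100 CPM, 13 of 20 neuropeptide genes and 69 of 1936 of all genes (3.56%) did. A gene that reaches such a mean through 1 library alone has to stand apart, so these counts describe the genes above the minimum and not the full list. Between any pair of libraries alone, 14 to 18 neuropeptide genes and 671 to 1008 of all genes differed by a factor of 2 or more.

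The enzymes that make peptides did not share this spread. All 10 genes for peptide processing and dense-core vesicles were detected, none stood apart, and their median CV was 11.6%. Of the 10, 9 had a mean of at least 100 CPM. At that level 3.56% of all genes stood apart and their median CV was 16.3%, so few apart would be found in most sets. IA-2, a dense-core vesicle protein, had 5009, 5438 and 4315 CPM and was rank 7 of all genes by CPM. 7B2, the helper of a prohormone convertase, had 3031, 3404 and 2708 CPM. Amidation of peptides needs Phm and Pal2, which had 1370, 1352 and 1292 CPM and 2607, 3119 and 2393 CPM. The prohormone convertase amon had 468, 501 and 397 CPM, and the carboxypeptidase svr had 1050, 1068 and 891 CPM. Library 3 was lowest for 7 of the 10, including all those named here, and for 40.1% of all genes. The same library had the largest sum of peptide transcripts.

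**Figure D5:**
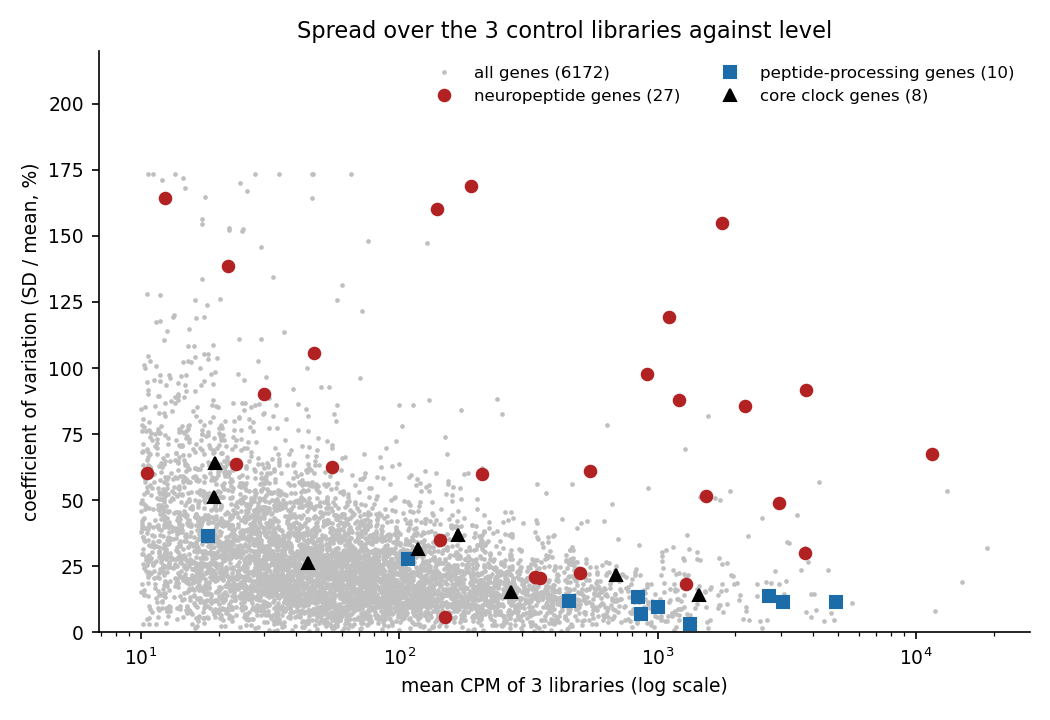
Coefficient of variation over the 3 control libraries (%) against mean CPM (log axis) for 6172 genes with a mean of at least 10 CPM, with neuropeptide, peptide-processing and core clock genes marked. Most neuropeptide genes lie above the cloud of all genes, with a median of 63.6%, and the peptide-processing genes lie low in it, with a median of 11.6%.

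Transcripts for several small transmitters were present. Of 15 listed genes 14 were detected, and Hdc, the gene of the enzyme that makes histamine, was the exception. Gad1, which makes GABA, had 1269, 1088 and 2638 CPM, and VGAT, its vesicular transporter, had 65.8, 79.2 and 66.0 CPM. Gad1 was higher in library 3 while VGAT was level. For dopamine, Ddc had 1129, 1066 and 1234 CPM, ple (tyrosine hydroxylase) 553, 513 and 732 CPM, and the transporter gene DAT 343, 301 and 636 CPM. Vmat, the vesicular transporter of all monoamines, had 909, 630 and 2280 CPM and was also highest in library 3.

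Serotonin genes were uneven. Trh, the neuronal tryptophan hydroxylase, had 7.90, 422 and 289 CPM, and SerT, the serotonin transporter, had 53.9, 3.52 and 103 CPM. They were lowest in different libraries. VGlut, the vesicular glutamate transporter known from dorsal clock neurons, had 406, 418 and 198 CPM. For acetylcholine, VAChT had 123, 117 and 109 CPM and ChAT 77.1, 175 and 38.7 CPM. The transmitter list as a whole had a median CV of 39.5%, with 6 of 14 genes apart, against 13.8% of all genes with a mean of at least 10 CPM.

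Receptors for fast transmitters differed by class. Rdl, the GABA-A receptor subunit through which sleep-promoting input reaches PDF neurons, had 1569, 1589 and 1536 CPM, a CV of 1.70%. Among acetylcholine receptors 11 of 13 were detected, with none of those 11 apart and a median CV of 18.1%. Of these 11, 9 had a mean of at least 100 CPM, where 3.56% of all genes stood apart with a median CV of 16.3%. nAChRbeta1 had 1021, 1088 and 993 CPM, nAChRalpha7 522, 748 and 698 CPM and nAChRalpha6 429, 521 and 638 CPM. GluClalpha, the glutamate-gated chloride channel, had 404, 437 and 334 CPM, and mGluR, the metabotropic glutamate receptor, had 443, 318 and 283 CPM. Of the 23 receptor genes for GABA, glutamate and histamine, 15 were detected. The 16 with a mean of at least 10 CPM had a median CV of 34.0%. Of these 16, 7 stood apart, against 13.8% of all genes above that minimum. GABA-B-R2, a metabotropic GABA receptor subunit, had 37.8, 146 and 68.4 CPM and was highest in library 2.

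Most listed receptors for peptides and amines were present. Of 38 peptide receptor genes 32 were detected, and 2 had a mean of at least 100 CPM. Of the 22 with a mean of at least 10 CPM 7 stood apart. Among all genes, 13.8% of those above that minimum and 30.7% of those from 10 to 30 CPM did. The 2 most counted were AstA-R1 with 160, 232 and 188 CPM and Dh44-R1 with 70.6, 225 and 44.5 CPM. Pdfr, through which clock neurons receive PDF, had 60.7, 116 and 87.8 CPM. It was highest in library 2, as were 12 of those 22 receptor genes and 40.0% of all genes with such a mean. The insulin receptor gene InR had 101, 82.6 and 93.7 CPM and SPR, a receptor for MIP, 109, 92.1 and 70.9 CPM. Of 17 monoamine receptors 16 were detected. DopEcR, which binds dopamine and ecdysteroids, had 437, 392 and 297 CPM, and Dop2R had 304, 116 and 219 CPM. For downstream signalling, 19 of 20 genes were detected and none of these 19 stood apart, while Galphai had 0, 0.640 and 7.23 CPM. Of these 19, 13 had a mean of at least 100 CPM, where 3.56% of all genes stood apart. Gbeta13F, Pka-R1 and Galphas were the most counted with means of 1261, 739 and 379 CPM.

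Of 32 ion channel genes 28 were detected. The 26 with a mean of at least 10 CPM had a median CV of 16.0%, with 1 of them apart, and the 6 below that level are not in these counts. Among all genes above that level, 13.8% stood apart. Of the 26, 16 had a mean of at least 100 CPM, where 3.56% of all genes stood apart. The potassium channel gene Sh had 934, 976 and 930 CPM, and qvr (sleepless), its modulator, had 1030, 818 and 771 CPM. para, the voltage-gated sodium channel, had 572, 646 and 635 CPM, cac, the presynaptic calcium channel, 611, 440 and 532 CPM, and Ih, the hyperpolarization-activated channel, 461, 630 and 506 CPM. The 18 genes of synaptic vesicles and active zones were all detected, with a median CV of 21.2% and 2 apart. Of these 18, 17 had a mean of at least 100 CPM. At that level 3.56% of all genes stood apart and their median CV was 16.3%. cpx (complexin) had 2656, 2952 and 3826 CPM and unc-13, a priming factor, 2430, 1537 and 1624 CPM. Snap25, with 738, 213 and 455 CPM, and Rop, with 466, 925 and 477 CPM, were the widest among the highest members.

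Genes for cell-surface recognition were present nearly without gaps. All 21 dpr genes and all 11 DIP genes, whose proteins bind each other in pairs at synapses, were detected, as were 13 of 14 beat genes. dpr7 was the most counted of its family with 911 ± 168 CPM (SD, n = 3), DIP-kappa of its own with 122 ± 65.0 CPM, and beat-VII with 233 ± 28.5 CPM. Of 25 genes on a wider adhesion list 24 were detected. The most counted were Fas1 with 1310, 1429 and 1260 CPM and Ten-a with 480, 614 and 501 CPM, although per length klg (103 ± 13.3 TPM) was above Ten-a (57.9 ± 11.4 TPM; SD, n = 3).

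Ribosomal and energy-supply genes were even between libraries. Cytosolic ribosomal protein genes, 83 of 92 detected, held 3.86, 3.89 and 4.55% of gene counts, and their median CV was 13.3%. Of the mitochondrial ribosomal protein genes 72 of 73 were detected. Genes of the ATP synthase held 1.71 ± 0.125% of counts with a median CV of 8.46%, the vacuolar proton pump 1.72 ± 0.0506%, and NADH dehydrogenase subunits 0.942 ± 0.0429% (SD, n = 3). The 17 genes listed for the tri-snRNP, a part of the spliceosome, were all detected, though only 1 of them, SmD2, had a mean of at least 100 CPM. The 16 with a mean of at least 10 CPM had a median CV of 26.4%, against 22.9% for all genes above that minimum. All of these 16 but SmD2 had a mean under 100 CPM. At such levels the median CV of all genes was 34.3% from 10 to 30 CPM and 23.6% from 30 to 100 CPM. Prp3, one of these, had 44.7, 69.1 and 27.7 CPM in the control cells.

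Genes of the mitochondrial genome took 0.748, 0.413 and 0.587% of gene counts. COX1 had 2112, 1180 and 1907 CPM and CYTB 1615, 902 and 1263 CPM, both highest in library 1 and lowest in library 2. Other genes of the same genome were close to the limit of detection, since ND2, ND3 and ND6 had 1.14 to 1.94 CPM in the 3 libraries.

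Stress genes were high, and lowest in library 3. Of 15 listed 14 were detected, and library 3 was the lowest for each of these 14, as for 40.1% of all genes. The list held 3.24, 3.66 and 2.12% of gene counts. Of its 14 genes with a mean of at least 10 CPM, 8 stood apart, against 13.8% of all genes above that minimum. At a mean of at least 100 CPM, 3.56% of all genes did. Without lncRNA:Hsromega, the noncoding heat shock RNA given above, it held 1.97, 2.45 and 1.05%. Hsp26 had 4717, 6367 and 1614 CPM, Hsp23 3108, 3259 and 1279 CPM, Hsp27 2200, 2767 and 779 CPM and Hsp68 2299, 2191 and 734 CPM. Hsp83, the fly Hsp90, had 3327, 5011 and 3156 CPM and the constitutive Hsc70-4 had 1448, 1800 and 1347 CPM, so both were closer. Counts of the near-identical Hsp70 copies are uncertain. Hsp70Bb, the most counted of them, had 299, 347 and 124 CPM. Of 11 genes known to follow neuronal activity, 7 were lowest in library 3 and 7 highest in library 2, which was the highest for 40.0% of all genes. Arc1 (5.68, 3.70 and 16.3 CPM) and Arc2 (4.64, 1.14 and 6.21 CPM) were highest in library 3. Hr38, the nuclear receptor of that group, had 37.3, 109 and 22.1 CPM.

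Families of other tissues were nearly silent. Of 59 odorant receptor genes 4 were detected, of 60 gustatory receptors 5, of 66 ionotropic receptors 4, of 51 odorant-binding proteins 2, of 70 cuticle proteins 2, of 85 cytochrome P450 genes 9, and of 16 Jonah proteases none. Each sensory family had 1 member with a mean of at least 10 CPM. These were Ir76a with 71.1, 112 and 64.8 CPM, Gr28b with 16.6, 44.5 and 31.0 CPM, and Or63a with 9.06, 35.7 and 38.3 CPM. They were named after their values were seen.

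Position and structure of a gene went with whether it was detected. Of the 79 protein-coding genes of chromosome 4, the small autosome, 73 (92.4%) were detected, against 53.2% on X and 45.9 to 49.4% on the arms of chromosomes 2 and 3. None of 24 on chromosome Y was. Chromosome 4 held 3.28% of gene counts, through genes such as ATPsynbeta, the calsyntenin gene Cals (2036, 1461 and 2268 CPM), unc-13, RpS3A and CaMKII (1659, 1261 and 1443 CPM). The detected share of protein-coding genes was 23.0% for those with no intron and 76.6% for those with 10 or more. It was 25.8% under 1 kb of exonic length and 86.5% at 8 kb or more, and a longer transcript gives more reads at the same number of molecules.

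The spread between libraries was narrower at higher levels, up to a point. The median CV was 34.3% for genes with a mean of 10 to 30 CPM, 23.6% from 30 to 100, 17.2% from 100 to 300, 14.04% from 300 to 1000 and 15.5% at 1000 CPM or more. Over the 6172 genes, counting of reads alone would give a median CV of 2.51%, far under the 22.9% measured, although amplified reads are not independent molecules. Of the 1936 genes with a mean of at least 100 CPM, 1309 (67.6%) varied by less than 1.5 times between the highest and the lowest library. The steadiest was Chchd2, a mitochondrial intermembrane space protein, with 357, 359 and 357 CPM, a CV of 0.35%. With it came CG5065, CG9636, CG8188, Vps4 (endosomal sorting), eIF3i (translation initiation), SF2 (a splicing factor), Rap1 (a small GTPase), viaf and CanB (calcineurin B, with 1151, 1169 and 1170 CPM), all with a CV under 1%. With 3 libraries, the lowest among so many CVs are low partly because they were picked as the lowest.

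At the other end, 7 of the 10 least steady genes above 100 CPM were neuropeptide genes: Capa, Orcokinin, ITP, Hug, Ms, Crz and sNPF. The others were Trh, CG4250 (11.9, 26.7 and 345 CPM) and CG1561, which had 215 CPM in library 1, no count in library 2 and 177 CPM in library 3.

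Single libraries differed in direction. Over the 6172 genes, library 1 stood apart above the others for 71 genes and below for 161, library 2 above for 206 and below for 98, and library 3 above for 113 and below for 280. At a factor of 4, library 3 was above for 44 genes, library 2 for 15 and library 1 for 5. In library 3 alone, 8 genes reached a mean of at least 10 CPM with no count at all in libraries 1 and 2, and no gene did so in library 1 or in library 2. They were CG42807 (196 CPM), CG6910 (139 CPM), lectin-28C (138 CPM), CG4950 (103 CPM), Sr-CI (82.7 CPM), NtR (40.9 CPM), lectin-24Db (33.5 CPM) and CG42711 (32.1 CPM), named after their values were seen. Sr-CI is a scavenger receptor of hemocytes, the cells whose markers Hml and NimC1 were also present in library 3. Other hemocyte genes differed: Pxn was lowest in library 3 (50.1, 73.2 and 10.9 CPM). crq was not raised there (71.1, 42.9 and 69.7 CPM), and He had no count in any library. The part taken by such cells was not tested.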

How the data were processed

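RNA was measured in 3 control libraries of sorted clock neurons. The deposited files hold whole-number read counts per gene made by the authors, 1 column for the strands together and 1 for each assignment, with lines for unmapped, multimapping, featureless and ambiguous reads above the genes. Per the submitters' processing notes, Trim Galore 0.6.7, STAR 2.7.0a and the dm6 genome were used. The counter's settings and the annotation are not given in the sources used here. The strand columns held nearly equal totals, so the column for both strands was used, and overlapping genes are less certain. Lines that name no gene took 23.1, 18.5 and 19.7% of reads and stayed out of library totals.

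Counts were divided by the gene total (CPM) with pandas 2.3.3. Exonic lengths for TPM and positions came from the Ensembl 115 annotation of BDGP6.54, with an exonic length for 17726 of 17868 genes and none for mitochondrial genes. Biotypes, chromosomes and other symbols came from RefSeq. Detected means at least 1 CPM in each library. CV is the SD over the mean. Genes named are the 20 highest by CPM and by TPM, the 10 steadiest and 10 least steady with a mean of at least 100 CPM, the core clock genes, all cell type markers and up to 8 highest members of a list. Lower neuropeptide, transmitter and channel genes and the mitochondrial genes were added after their values were seen. So were dco, jet, Prp3, Hr38, Arc1, Arc2, Galphai, klg, GABA-B-R2 and Hsp70Bb. The members and lists were chosen with earlier results of these data known. One group gives no comparison, so no test was made. The calculation was tested on simulated data.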

Additional observations from a re-analysis of the deposited data

How the results depend on the processing

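TMM scaling by edgeR kept all 14 summary values and 101 of 101 named levels within the limits set for them. The forward and the reverse strand columns each kept 12 of 14 values: the protein-coding share of counts was 93.6% with either, and the noncoding share 6.01% with either; 16 of the 101 named genes moved by more than 1 SD. Leaving out mitochondrially encoded genes moved 2 named genes. The median CV was 28.0% at a mean of at least 1 CPM and 16.3% at 100 CPM, and that of the neuropeptide genes 74.5% at 1 CPM and 83.2% from the SD of log2(CPM + 1). At a factor of 4, 158 genes and 11 neuropeptide genes stood apart, and at a mean of at least 100 CPM, 69 and 13. With 1 library left out, the median CV was 16.2 to 21.6%, the neuropeptide median CV 48.4 to 66.7%, detected genes 7294 to 7351, genes apart 671 to 1008 and neuropeptide genes apart 14 to 18. Fewer libraries give a lower CV by construction, and other causes were not tested. No paired analysis was possible because the control group was compared with no other. Depth limits levels under 1 CPM, and 3 libraries limit each CV.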
